A study of Mus musculus with 2 samples.

Results

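Cartilage holds its shape and load through a matrix that is more than collagen. Acan, Comp, Matn1, Matn3, Matn4, Hapln1, Cnmd, Snorc, Ucma, and Chad encode the non-collagen proteins most closely tied to this matrix. These 10 genes were chosen by symbol, as 10 of the 32288 features counted, and every one of them was detected in both libraries. Their levels were followed across chondrocytes with little or much Col10a1, tenocytes, and other stromal cells of mouse periosteum.

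Periosteal cells were peeled from the femurs and tibias of wild-type C57BL6 mice at 4 weeks of age, digested with collagenase, sorted with antibodies to CD45, CD31, and Ter-119, and measured by 10x 3′ scRNA-Seq. The 2 libraries are replicates 1 and 2 of this single untreated condition, so all comparisons here lie between cell classes of the same libraries. How many mice stand behind each library is not given in the sources used here. The p-values therefore measure the spread between 2 libraries and cannot be read as a spread between animals. The libraries also differed in EGFP reporter transcripts, as given below. Each unique molecular identifier (UMI) stands for 1 captured transcript molecule, counted at its 3′ end.

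In growing cartilage, aggrecan (Acan) carries the chondroitin sulfate that draws in water, and link protein (Hapln1) fixes it to hyaluronan. Matrilins, cartilage oligomeric matrix protein (Comp), and chondroadherin (Chad) connect collagen fibrils with proteoglycans or with the cell surface. Growth plate chondrocytes pass from a proliferating, Col2a1-rich state to a hypertrophic state marked by type X collagen, Col10a1.

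The libraries held 9932 and 3659 barcodes with 100808649 and 33306452 UMIs. The filters kept 6276 and 2893 cells, with medians of 8164 and 6279 UMIs, and 7 kept barcodes occurred in both. Although the sort was set against CD45 and Ter119, B cell-like cells alone numbered 2225 and 1173. The WT label and the counts also disagreed at one point, since EGFP reporter transcripts were found in library 2 and tdTomato reporter transcripts in both. Levels and ratios are therefore given for each library separately. The fitted fold changes, their p-values, and the correlations over class sums combine both libraries.

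Chondrocyte-like cells were named from a list of 14 cartilage collagens and other markers that contained none of the 10 genes, and none of the 10 was used to cluster the cells. There were 112 such cells in library 1 and 320 in library 2, in 4 clusters, of which 3 are described one by one. The Fxyd2-high cluster (27 and 119 cells) carried 13 of the 14 markers. The Col10a1-high cluster (67 and 74 cells) carried 10. The Prg4-high cluster, led by Msmp, Cytl1, and the lubricin gene Prg4, also carried 10, but all of its 78 cells came from library 2. The other cluster (18 and 49 cells) carried only 6, beside 5 of 9 osteogenic progenitor markers, so its class is the least secure. CPM stands for the UMIs counted for a gene per 1000000 UMIs of a cell, or of all cells of a class in a library, with no scaling by gene length. Division at 1000 CPM of Col10a1 in the single cell gave 31 and 189 Col10a1-low cells and 81 and 131 Col10a1-high cells. This cut was set by level alone and does not define cell types. Few cells lay near it, with 7 and 12 between 300 and 3000 CPM. Under 100 CPM lay 25 and 175 cells, and over 10000 CPM lay 75 and 100. The low group was deeper, with median UMI counts of 32034 and 18867 against 7975 and 12215. Its Col2a1 stood at 44970 and 33410 CPM, against 19940 and 13630 CPM in the high group.

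The 10 genes lie on 10 different stretches of the genome and on 9 chromosomes, and in the GENCODE M21 annotation of GRCm38 none overlaps another gene on its own strand. Acan spans chr7:79053483-79115099, Comp chr8:70373558-70382066, Ucma chr2:4976122-4985748, and Chad chr11:94565047-94569127, all on the plus strand, and Cnmd chr14:79637690-79662170 on the minus strand. Matn4, Hapln1, and Chad overlap Rbpjl, Gm8546, and Acsf2 on the opposite strand. The 250 bases before the RefSeq start (GRCm38.p6) are shown for 4 members whose levels set the patterns described here, namely Acan for the members present in all chondrocyte-like clusters, Ucma and Cnmd for those that parted most with Col10a1, and Chad for those shared with tenocyte-like cells. The windows are chr7:79052976-79053225 (Acan), chr2:4975872-4976121 (Ucma), and chr11:94564797-94565046 (Chad) on the plus strand, and chr14:79662184-79662433 (Cnmd) on the minus strand. No exon annotated in GENCODE M21 overlaps them, and each is written 5′ to 3′ along its gene.
Acan: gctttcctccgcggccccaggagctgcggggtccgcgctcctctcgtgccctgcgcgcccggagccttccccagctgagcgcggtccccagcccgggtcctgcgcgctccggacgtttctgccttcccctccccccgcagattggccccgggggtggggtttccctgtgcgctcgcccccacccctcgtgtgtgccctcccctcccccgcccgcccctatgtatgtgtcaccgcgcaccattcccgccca
Ucma: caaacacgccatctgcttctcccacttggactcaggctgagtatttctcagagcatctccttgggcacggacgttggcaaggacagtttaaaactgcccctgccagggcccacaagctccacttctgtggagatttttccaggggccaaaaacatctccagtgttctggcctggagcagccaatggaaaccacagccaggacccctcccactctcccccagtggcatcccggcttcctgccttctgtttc
Cnmd: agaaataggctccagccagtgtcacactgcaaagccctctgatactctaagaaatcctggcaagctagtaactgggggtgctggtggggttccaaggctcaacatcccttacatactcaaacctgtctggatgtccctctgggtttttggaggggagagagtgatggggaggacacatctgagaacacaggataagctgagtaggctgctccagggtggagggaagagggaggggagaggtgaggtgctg
Chad: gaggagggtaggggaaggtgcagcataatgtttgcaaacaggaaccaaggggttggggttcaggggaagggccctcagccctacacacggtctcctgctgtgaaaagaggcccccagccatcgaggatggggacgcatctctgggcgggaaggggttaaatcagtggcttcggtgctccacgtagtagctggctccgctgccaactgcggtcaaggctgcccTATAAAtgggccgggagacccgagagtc
Capitals mark the TATA box letters TATAAA, which stood in the Chad window alone among the 9 windows found for 8 of the 10 genes, against 12.4% of all 32851 windows of that length. The core letters ACAAT of a SOX site were found in 1 of the 9, that of Hapln1, against 27.7% of all windows, and the longer form AACAAT, which was searched first and contains the shorter, in 0 of the 9 against 9.42%. Both strands were searched. G and C made up 74.4% of the Acan window, 56.4% of the Ucma window, 54% of the Cnmd window, and 60.4% of the Chad window.

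Together the 10 genes took 3.79% and 2.60% of all UMIs in Col10a1-low cells of libraries 1 and 2, and 2.22% and 1.57% in Col10a1-high cells. In tenocyte-like cells their share was 0.173% of UMIs in library 1, where only 5 such cells were found, and 0.764% in library 2. Snorc, a small transmembrane proteoglycan of cartilage, was the most counted of the 10 in chondrocyte-like cells, with 26.8% and 27.4% of the members' UMIs in the low group and 27.3% and 28.8% in the high group. In tenocyte-like cells of library 2 the order was another, with Comp at 61.5% and Chad at 34.1% of the members' UMIs.

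**Figure D1:**
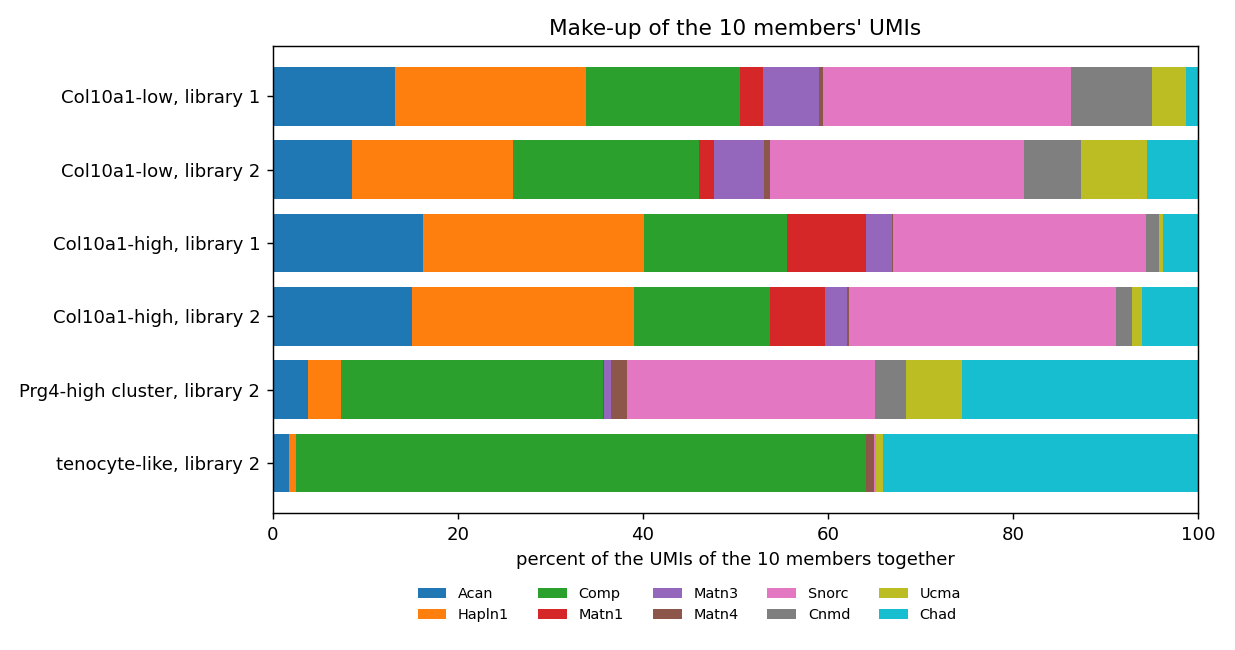
Stacked bars give each gene's percent of the UMIs of the 10 members together (x axis), 1 bar for each cell group and library (y axis). Snorc takes 26.8% to 28.8% in the Col10a1-low and Col10a1-high bars, while Comp and Chad fill 61.5% and 34.1% of the tenocyte-like bar of library 2.

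All 10 genes were higher in chondrocyte-like cells than in the mean of osteoblast-like, fibroblast-like, and Lepr+ stromal-like cells, the stromal classes that reached 10 cells in both libraries. The adjusted p-values ran from 7.5e-05 for Matn3 to 0.014 for Matn4 (edgeR quasi-likelihood test on UMIs summed per library and class, Benjamini-Hochberg over 10792 genes). The background was 6.89% of genes higher and 4.46% lower in this comparison. The class was named by cartilage markers, and members nearly absent elsewhere passed the count filter through its sums. Cnmd, for example, had 2 and 1 UMIs in osteoblast-like cells and 0 in fibroblast-like and Lepr+ stromal-like cells. Higher levels were thus largely set in advance, here and against single classes, and the calls are a description. The median fitted log2 fold change was 10.3 for the members and 0.03 for all genes. Several members had no UMI in a comparison class, and with these set at the level of 3 UMIs the members' median log2 ratio was 8.96 in library 1 and 8.99 in library 2. The smallest differences were those of Matn4 (log2 fold change 3.32 ± 0.674 SE), Chad (5.88 ± 1.16), and Comp (5.90 ± 1.05). Of the genes called, 60.7% were higher in chondrocyte-like cells with edgeR and 46.5% with DESeq2.

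Acan and Hapln1, the aggregate of aggrecan and its link protein, were far higher in chondrocyte-like cells than in the other stromal classes tested. Acan reached 4995 and 2219 CPM in Col10a1-low cells and 3615 and 2367 CPM in Col10a1-high cells. In osteoblast-like cells it was at 6.56 and 7.26 CPM, in fibroblast-like cells at 0 and 1.08 CPM, and in Lepr+ stromal-like cells at 0 and 12.8 CPM. The level in chondrocyte-like over osteoblast-like cells was 661-fold in library 1 (95% Poisson interval 412 to 1134) and 312-fold in library 2 (210 to 488). Hapln1 stood at 7808 and 4534 CPM in the low group and 5285 and 3769 CPM in the high group, against 11.96 and 11.49 CPM in osteoblast-like cells. Both were far above the B cell-like cells, which lack a cartilage matrix and held 1.11 and 2.15 CPM of Acan and 1.73 and 2.00 CPM of Hapln1. Intervals for UMIs cover counting error only.

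Snorc was also concentrated in cartilage cells. It was counted at 10140 and 7139 CPM in Col10a1-low and 6067 and 4537 CPM in Col10a1-high cells. Osteoblast-like cells held 1.93 and 3.02 CPM, fibroblast-like cells 0 and 3.97 CPM, and Lepr+ stromal-like cells no UMI in either library. Across the 14 sums of class and library with at least 10 cells, the genes whose log2(CPM + 10) followed Acan most closely were Hapln1 (Pearson r = 0.989), Snorc (0.9735), and Col2a1 (0.9734), among 6041 genes. These sums share libraries and differ in depth, so the correlations are a description. Some also rest on single cells. In the sum of skeletal muscle-like cells of library 1, all 44 Acan UMIs lay in 1 cell. The same held for all 110 Hapln1 UMIs and for 168 of the 169 Snorc UMIs.

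The matrilins, adaptor proteins that bind collagen fibrils and proteoglycans, did not share a pattern. Matn1 was counted at 916 and 443 CPM in Col10a1-low cells and at 1899 and 928 CPM in Col10a1-high cells, and it was the only member with more in the high group in both libraries. Matn3 went the other way, with 2302 and 1408 CPM in the low group against 618 and 375 CPM in the high group. Matn4 was the scarcest, with 162 and 155 CPM in the low group and 24.4 and 28.4 CPM in the high group. In osteoblast-like, fibroblast-like, Lepr+ stromal-like, and tenocyte-like cells, Matn1 and Matn3 were counted at 4.77 CPM or less in either library. Some of these sums were too shallow to set so low a limit. Neither gene had a UMI in tenocyte-like or fibroblast-like cells of library 1, or in Lepr+ stromal-like cells of library 2. The level of 3 UMIs in these sums was 94.45, 10.89, and 12.81 CPM. Matn4 was found in fibroblast-like cells, at 163 CPM in library 1 and 17.7 CPM in library 2. Of the 45 Matn4 UMIs in fibroblast-like cells of library 1, 29 came from 1 of 23 cells.

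Ucma, a secreted protein of resting and upper growth plate cartilage, and Cnmd, the chondromodulin that keeps cartilage free of vessels, were the members most sharply divided by Col10a1. Ucma was at 1372 and 1853 CPM in Col10a1-low cells and at 89.6 and 162 CPM in Col10a1-high cells. Cnmd was at 3338 and 1623 CPM in low cells and at 313 and 284 CPM in high cells. A Ucma UMI was found in 83.9% and 85.7% of low cells, but in 4.94% and 10.7% of high cells. Thinned to 2000 UMIs per cell, so that depth was equal and with shallower cells left out, these shares were 72.7% and 66.7% against 1.82% and 7.28%. In B cell-like cells, with median depths of 3515 and 3756 UMIs, the share with a Ucma UMI was 0.180% and 0.426%.

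**Figure D2:**
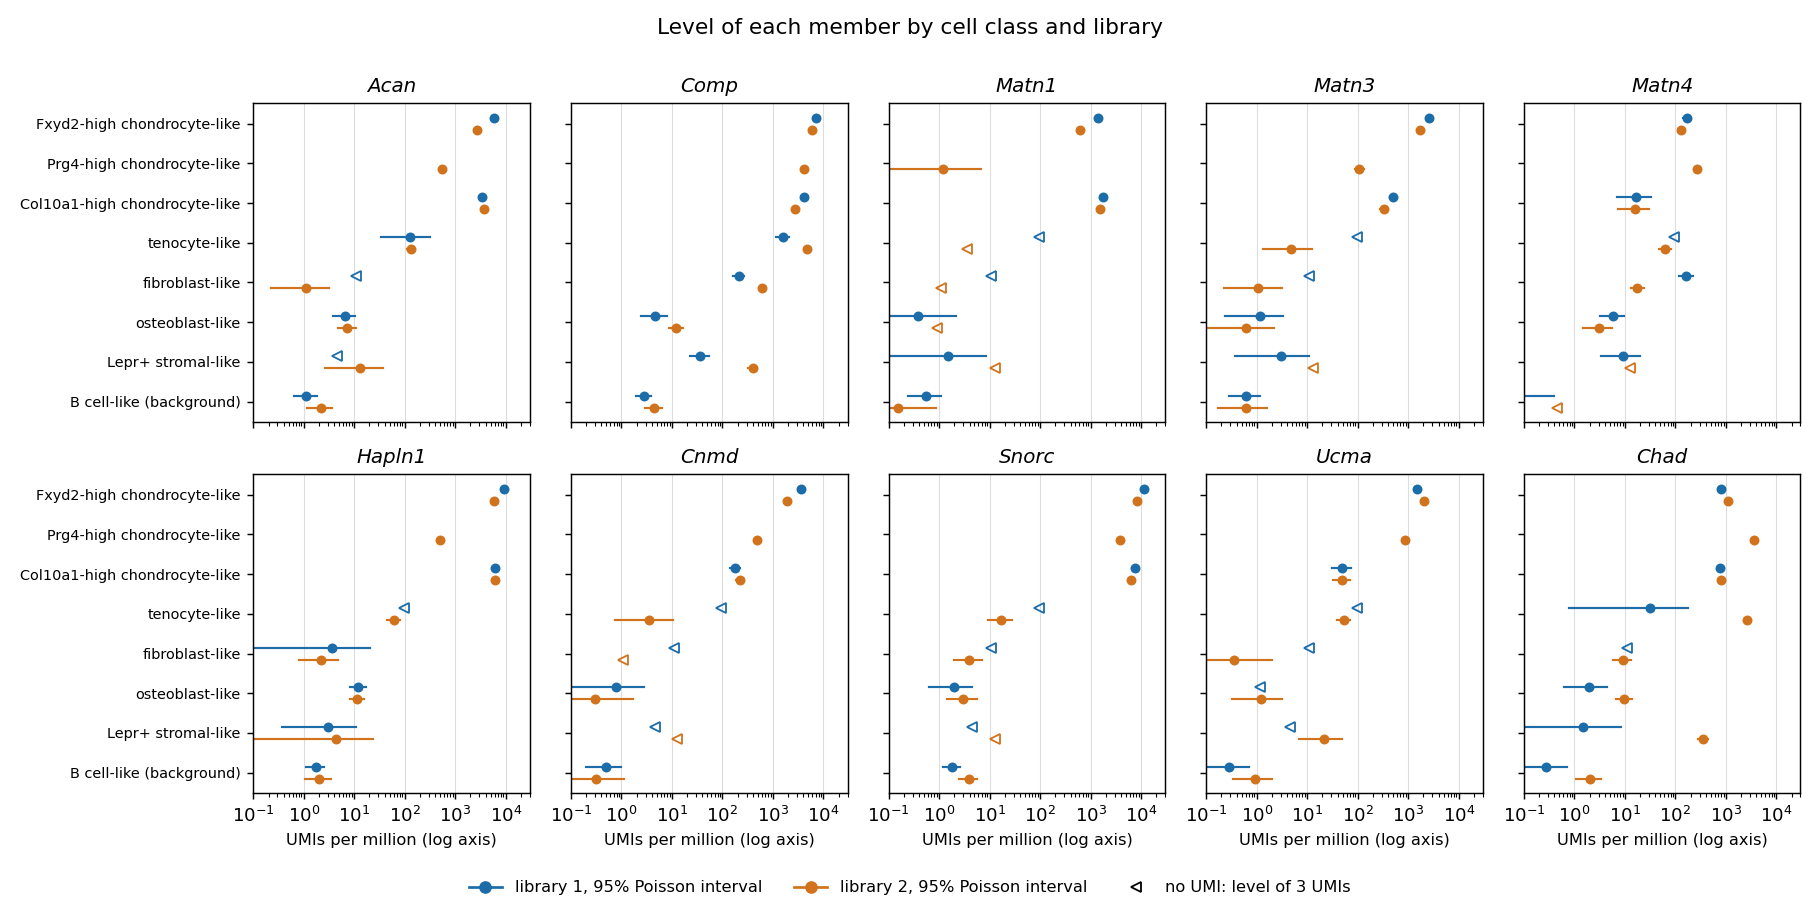
Each panel gives 1 gene, with CPM on a log axis (x) for each cell class or cluster (y); points are libraries, bars are 95% Poisson intervals, and open triangles mark the level of 3 UMIs where none was counted. Snorc, Acan, and Hapln1 lie at 12.8 CPM or less in osteoblast-like, fibroblast-like, and Lepr+ stromal-like cells, while Comp and Chad stay high in tenocyte-like cells of library 2.

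Comparison of the Col10a1-low and Col10a1-high groups asks which matrix genes differ between cells with little and much Col10a1. Both groups mix clusters, and no cell was followed over time, so a difference is not a change within cells. Within each library, the low group exceeded the high group by 15.3-fold (interval 12.2 to 19.5) and 11.4-fold (10.2 to 12.8) for Ucma. For Cnmd the ratios were 10.7 (9.41 to 12.1) and 5.71 (5.24 to 6.23). Matn4 gave 6.63 (4.18 to 11.02) and 5.47 (4.16 to 7.30), and Matn3 gave 3.72 (3.38 to 4.10) and 3.75 (3.48 to 4.05). These 4 genes were higher in the low group in 2 of 2 libraries, as were Comp, Snorc, and Hapln1 with smaller ratios. The share of all genes with the same direction in both libraries is not reported here. The share of all genes tested that edgeR called higher in the low group, a different measure, was 0.797%. No member was among the genes so called, so this share is no background for the shared direction.

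The other members differed less or went the other way. Comp ratios of low over high were 1.84 and 2.25, Snorc ratios 1.67 and 1.57, and Hapln1 ratios 1.48 and 1.203. Matn1 was 0.483 (0.444 to 0.525) and 0.477 (0.447 to 0.509) of the high level. Acan and Chad changed sides between libraries, with Acan at 1.38 and 0.938 and Chad at 0.594 and 1.498. Without the Prg4-high cluster, which library 1 lacked, the Acan ratio in library 2 was 1.11 (1.07 to 1.15) and the Chad ratio 0.984 (0.929 to 1.04).

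**Figure D3:**
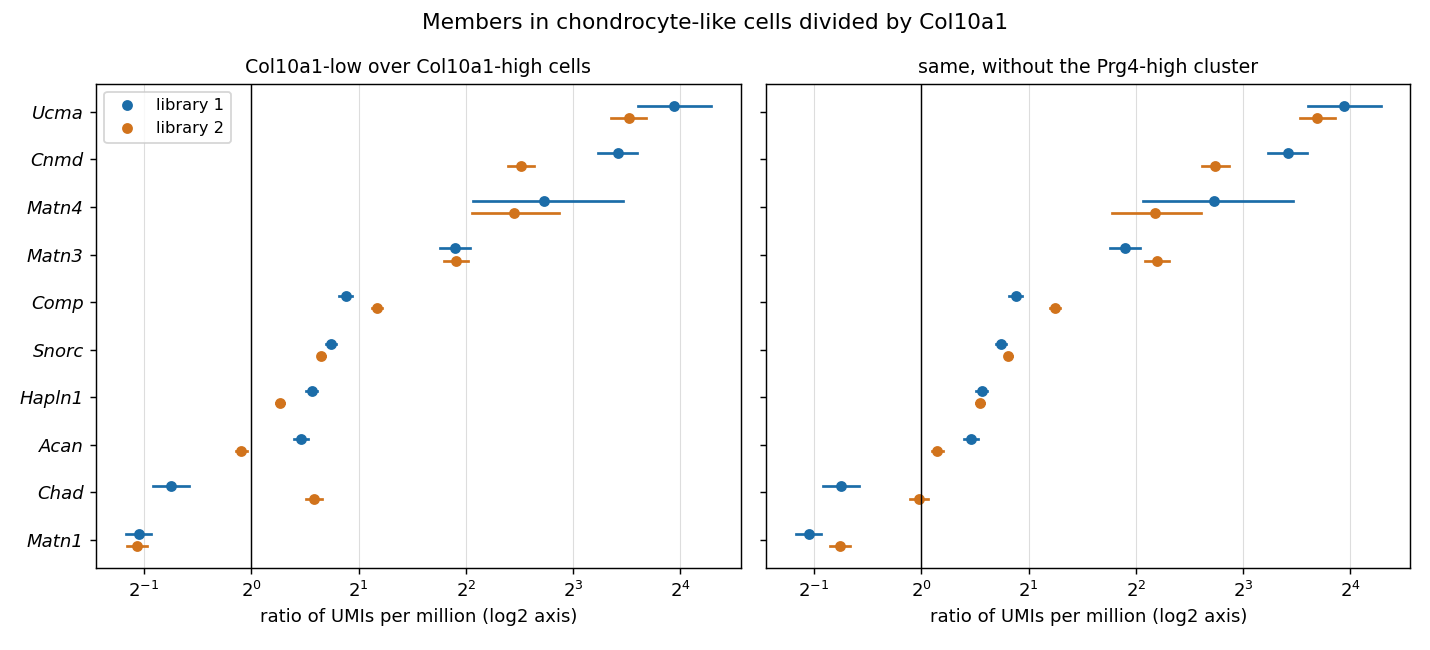
The ratio of CPM in Col10a1-low over Col10a1-high cells (x, log2 axis) is drawn for each gene (y) and library, with 95% Poisson intervals, for all chondrocyte-like cells at left and without the Prg4-high cluster at right. Ucma, Cnmd, Matn4, and Matn3 lie to the right of 1 in both libraries, Matn1 to the left, and Acan and Chad on both sides when all cells are used.

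Over the 2 libraries, 0 of the 10 genes passed the edgeR test in this comparison, while 0.797% of 10165 genes were called higher and 0.994% lower in the low group. Unadjusted p-values were under 0.05 for 3 members, against 16.8% of all genes, and DESeq2 called 1 of 10 higher, against 2.68% of all genes. The edgeR log2 fold change was 3.67 ± 1.03 (SE) for Ucma (adjusted p = 0.1), 2.93 ± 0.758 for Cnmd (adjusted p = 0.086), 2.52 ± 0.862 for Matn4 (adjusted p = 0.17), and 1.74 ± 0.835 for Matn3 (adjusted p = 0.31). The median was 0.72 for the members and 0.01 for all genes. With the library as a block, which pairs the low and the high cells of the same library, Cnmd (2.88 ± 0.551, adjusted p = 0.025) and Ucma (3.65 ± 0.802, adjusted p = 0.036) were called higher, as were 2.41% of all genes. With the cells clustered at resolution 0.4 in place of 0.8, which changes the cells that make up the class, Ucma and Cnmd lost part of their difference (log2 fold changes 2.29 and 1.71) and the fitted signs of Acan, Comp, Hapln1, Snorc, and Chad turned, so the direction of those 5 genes is not settled. The members' median turned with them, to −0.37, against 0.21 for all genes.

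The Col10a1-high group was not the Col10a1-high cluster alone. That cluster gave 66 and 73 of its cells and 56.0% and 28.0% of its UMIs in libraries 1 and 2. The cluster with 6 of the 14 markers gave 13 and 46 cells and 34.4% and 56.8% of the UMIs, against 10.6% and 1.06% in the low group. The Fxyd2-high cluster added 2 and 11 cells with 9.59% and 14.5%. The ratios of low over high therefore rest in part on a cluster whose class is the least secure.

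Grouped along Col10a1 in 4 steps (under 100, 100 to 1000, 1000 to 10000, and over 10000 CPM), Cnmd was lower at each successive step in both libraries. Its values were 3655, 2100, 1520, and 147 CPM in library 1 and 1641, 1454, 567, and 164 CPM in library 2. Ucma was at 1565, 621, 674, and 9.27 CPM in library 1 and at 1908, 1328, 394, and 63.2 CPM in library 2. Matn3 kept 1626 CPM in the third step of library 1 and was at 479 CPM in the last, whereas in library 2 it was already at 669 CPM in the third. Matn1 was highest in the last step of library 1, at 2079 CPM. In library 2 its values were 375, 1093, 469, and 1123 CPM. There the intervals of the second step (993 to 1201) and the last (1069 to 1180) overlapped. Without the Prg4-high cluster the second step of library 2 stood above the last, at 1209 against 1123 CPM. The steps rest on 25, 6, 6, and 75 cells in library 1 and 175, 14, 31, and 100 cells in library 2, so the middle steps are thinly filled.

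**Figure D4:**
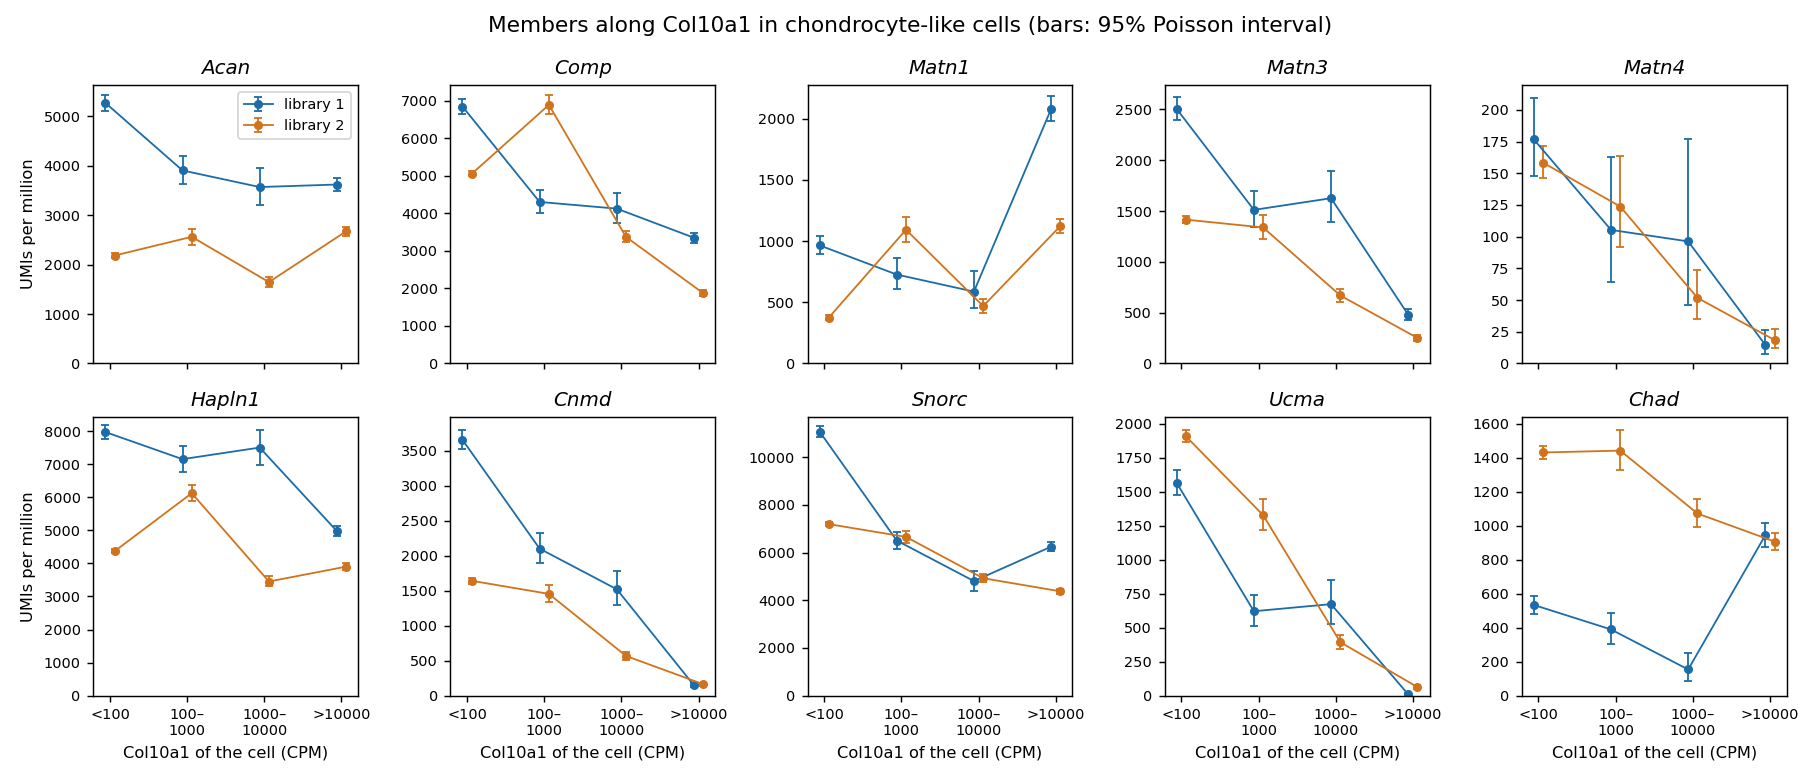
Each panel gives 1 gene, with CPM (y) over 4 groups of chondrocyte-like cells ordered by the cell's own Col10a1 level (x, CPM); points are libraries and bars are 95% Poisson intervals. Cnmd goes from 3655 to 147 CPM in library 1 and from 1641 to 164 CPM in library 2. Matn1 is highest in the last group of library 1, while its second and last groups in library 2 lie close together (1093 and 1123 CPM).

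The clusters split the members further. Set against each other, the Fxyd2-high and Col10a1-high clusters leave out the cluster with 6 of the 14 markers. The Fxyd2-high cluster, in which Cnmd and Matn3 are themselves among the 3 leading genes, held 1464 and 2026 CPM of Ucma, against 49.2 and 49.4 CPM in the Col10a1-high cluster, a ratio of 29.8 (19.9 to 46.6) and 41.0 (28.4 to 61.8). Between these clusters Matn3 (5.33 and 5.31), Matn4 (10.3 and 8.30), Comp (1.79 and 2.18), and Snorc (1.51 and 1.32) were also higher in the Fxyd2-high cells of both libraries, and Matn1 was lower (0.783 and 0.392). Acan, at 1.68 (1.59 to 1.78) and 0.734 (0.699 to 0.770), and Hapln1, at 1.499 (1.44 to 1.56) and 0.9396 (0.907 to 0.974), changed sides between the libraries. The Chad ratios were 1.02 (0.901 to 1.16) and 1.35 (1.23 to 1.49). These clusters were built on the genes of the same cells, so the ratios are a description.

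The Prg4-high cells of library 2 had a different mixture. Chad stood at 3660 CPM, 3.33 times the Fxyd2-high level (3.17 to 3.49), and Matn4 at 263 CPM, 1.99 times (1.69 to 2.34). The other members were lower than in Fxyd2-high cells. Comp, at 4078 CPM, was 0.699 times the Fxyd2-high level (0.674 to 0.725). Snorc was 0.456 times, Ucma 0.430 times, and Cnmd 0.257 times that level. Acan was at 548 CPM, Hapln1 at 504 CPM, Matn3 at 108 CPM, and Matn1 at 1.22 CPM, the last from 1 UMI. In this cluster Comp, Snorc, and Chad supplied 28.4%, 26.8%, and 25.5% of the members' UMIs. Only library 2 holds these cells, so cluster and library cannot be told apart.

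Across the cells of a cluster, most pairs of members had a rank correlation above 0, but not all. Pairs of other genes were not computed, so these values have no background to be read against. In the Col10a1-high cluster the median rank correlation over 21 pairs of members was 0.369 in library 1 (67 cells) and 0.356 in library 2 (74 cells), with Matn3 and Hapln1 at 0.705 and 0.625. These 21 pairs leave out Matn4, Cnmd, and Ucma, which were found in too few cells of that cluster. Among the 119 Fxyd2-high cells of library 2, the median over 45 pairs was 0.182, with 32 pairs above 0. Acan correlated with Matn3 (0.625) and Hapln1 (0.573) in these cells. Chad ran against Matn1 there (−0.572), and also against the cell's UMI total (−0.376). All pairs within a cluster share the cells' depth, and the part of depth in these values was not tested.

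Tenocyte-like cells were named by 8 of 9 tendon markers, but they also carried 7 of 10 fibroblast markers. They held 2 members at over 1000 CPM, Comp and, in library 2, Chad. Comp, which is known in tendon as well as in cartilage, was at 1574 CPM in library 1 and 4699 CPM in library 2. Relative to fibroblast-like cells this was 7.47-fold (5.02 to 11.1) and 7.90-fold (7.46 to 8.38) more, and relative to Col10a1-low chondrocyte-like cells it was 0.249 and 0.899. A Comp UMI was found in 78.8% of the 99 tenocyte-like cells of library 2 (exact binomial interval 69.4% to 86.4%), and in 76.1% after thinning to 2000 UMIs. In B cell-like cells the share was 1.80% and 2.13%. The level varied widely among these 99 cells, with a 10th percentile of 0, a median of 2388, and a 90th percentile of 12640 CPM.

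Chad was at 2602 CPM in tenocyte-like cells of library 2, 1.82 times its level in Col10a1-low chondrocyte-like cells (1.73 to 1.91) and 289 times that of fibroblast-like cells (195 to 447). It was found in 47.5% of these cells (37.3% to 57.8%), and in 41.4% after thinning, with a median of 0 and a 90th percentile of 5871 CPM. Library 1 gave 31.5 CPM, from 1 UMI in 5 cells. Acan was low, at 126 and 135 CPM, and Matn1 had no UMI in either library, which in library 2 leaves room for up to 3.58 CPM. The 5 cells of library 1 were too few for the main test. With a minimum of 2 cells, edgeR called 0 of 8965 genes between tenocyte-like and fibroblast-like cells, while 530 genes and 5 members had unadjusted p-values under 0.05.

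Comp, Chad, and Matn4 were the members not called in every comparison with a single stromal class. Against osteoblast-like cells, 9 of 10 members were higher (background 4.36% of 10792 genes higher and 3.21% lower), with a log2 fold change of 8.89 ± 1.9 for Comp (edgeR adjusted p = 0.021). Chad missed the threshold at 7.14 ± 1.92 (edgeR adjusted p = 0.054) and passed it with the library as a block (adjusted p = 0.021). Against fibroblast-like cells, 8 of 10 were higher (background 5.8% higher and 7.7% lower). The others were Comp, at 3.81 ± 1.5 (edgeR adjusted p = 0.13), and Matn4, at 0.81 ± 0.876 (edgeR adjusted p = 0.61). Fibroblast-like cells held 211 and 595 CPM of Comp, found in 21.7% and 45.8% of cells. Against Lepr+ stromal-like cells, 8 of 10 were higher (background 5.03% higher and 6.18% lower), and Comp (4.99 ± 1.6, edgeR adjusted p = 0.076) and Chad (3.03 ± 1.59, edgeR adjusted p = 0.26) were not called. In library 2, 93 of the 94 Comp UMIs and all 83 Chad UMIs of Lepr+ stromal-like cells came from 1 of 40 cells. In these 3 comparisons the members' median fitted log2 fold changes were 9.58, 11.4, and 10.0, against 0.01, 0.06, and 0.02 for all genes. With absent members at the level of 3 UMIs, the medians in libraries 1 and 2 were 9.71 and 8.96 against osteoblast-like, 7.05 and 10.0 against fibroblast-like cells, and 8.87 and 6.16 for the Lepr+ class. Scaling by DESeq2 size factors moved the median of all genes from 0.03 to −0.09 against the mean of the classes, from 0.06 to −0.08 for fibroblast-like cells, and from 0.02 to −0.16 where the Lepr+ class was the reference.

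Genes that build or cut this matrix were counted beside the members. The class was named by cartilage markers, and the lists were chosen with earlier results of these data known. The calls for these lists are therefore a description as well. Of 11 genes for chondroitin sulfate and hyaluronan synthesis, 10 were tested and 5 were higher in chondrocyte-like cells than in the mean of the other classes by edgeR, where 6.89% of all genes were higher and 4.46% lower. They were the chain starter Xylt1 (log2 fold change 4.05), Csgalnact1 (5.45), the sulfotransferase Chst11 (3.92), the sulfate donor enzyme Papss2 (4.04), and the sulfate transporter Slc26a2 (2.74). All 3 genes of the Sox trio, the transcription factors of the chondrocyte lineage, were higher, with Sox9 at 4.69, Sox5 at 3.87, and Sox6 at 2.95. Among 4 tested hyaluronan-binding and link paralogs, Hapln3 was higher (3.44) and the proteoglycan Vcan was lower (−5.60). Hapln3 was at 8.93 and 9.32 CPM in chondrocyte-like cells and at 6.56 and 12.1 CPM in osteoblast-like cells. Against osteoblast-like cells alone, 0 of these 4 paralogs were called higher and 3 lower. Of 7 matrilin, thrombospondin, and cartilage intermediate layer relatives, Thbs1 (2.08) and Thbs3 (2.20) were higher than in this mean. Thbs3 was at 155 and 132 CPM in chondrocyte-like cells, but at 185 and 162 CPM in fibroblast-like cells. Against fibroblast-like cells alone, 0 of these 7 relatives were called higher and 1 lower. Of 5 proteases none was called higher than the mean of the other classes, and the aggrecanases Adamts4 (−2.38) and Adamts5 (−2.37) were lower. Adamts4 rested on 5 and 8 UMIs in chondrocyte-like cells. Mmp13, not called, was at 1805 and 493 CPM there, against 156 and 113 CPM in osteoblast-like and 18.2 and 0.361 CPM in fibroblast-like cells. Among these 5, 1 was higher and 1 lower against fibroblast-like cells, 0 either way against osteoblast-like cells, and 2 lower against Lepr+ stromal-like cells.

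Between the Col10a1 groups, Sox5 was the only gene of these lists that edgeR called, with 106 and 97.7 CPM in low cells against 16.3 and 15.4 CPM in high cells (log2 fold change 2.61 ± 0.4, adjusted p = 0.024). Papss2, at 496 and 279 CPM in low cells against 45.4 and 59.2 CPM in high cells, and Chst11, at 517 and 244 against 51.2 and 58.2 CPM, were not called. The collagenase gene Mmp13 was at 167 and 20.6 CPM in low cells and 3582 and 1486 CPM in high cells, and was not called either. In tenocyte-like cells the relatives Thbs4 (2676 and 2344 CPM) and Cilp2 (504 and 1545 CPM) stood beside Comp.

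The genes most like Comp across the 14 sums were Lgals3 (Pearson r = 0.930), Anxa8 (0.874), and Cpne8 (0.872), none of them a member. Among these sums, 93 of the 94 Comp UMIs of Lepr+ stromal-like cells of library 2 lay in 1 cell. So did all 83 Comp UMIs of skeletal muscle-like cells of library 1. Those most like Ucma were Ppp1r1b (0.993), Scrg1 (0.986), and Meltf (0.975), again with no member among them.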

How the data were processed

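The authors processed the reads with Cell Ranger 6.1.2 and the mm10 build, per the submitters' processing notes, and deposited UMI counts of every gene in every barcode, neither normalized nor pooled. The annotation release is not given in the sources used here. Of 32288 features, 32158 were found in GENCODE M21.

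Cells with at least 500 genes, at least 500 UMIs, and at most 10% mt- UMIs were integrated in Seurat 5.3.0 (R 4.3.3) by CCA with 3000 variable genes, 30 anchor dimensions, 15 principal components, and Louvain resolution 0.8. The members and their partner lists were left out of the variable genes. A cluster took the class with the most markers found (log2 fold of at least 1 over all other kept cells, in at least 20% of its cells, at least 3 markers). It was left unnamed where another class had more markers among the cluster's 10 leading genes. This rule was set after the clusters were seen. Scrublet (scanpy 1.11.5) marked 1.98% and 0.0346% of cells, so it did not work in library 2, and doublets were kept. It marked no chondrocyte-like cell.

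Within each library the UMIs of a class were added up, and the classes that reached 10 cells in both libraries entered 1 fit (edgeR 4.0.16, TMM, filterByExpr, bias-adjusted quasi-likelihood test, Benjamini-Hochberg, threshold 0.05), which was also tested on simulated data. Alternatives were DESeq2 1.42.0, other scalings, filters, resolutions, cuts, and cell minimums, no integration, and the library as a block. An SE given with an edgeR log2 fold change is its size divided by the square root of the test's F statistic. It restates the p-value and is not a separate estimate of spread. UMIs remove PCR copies. Poisson and binomial intervals (95%) cover counting error only, and a class at 0 was given the level of 3 counts. A replicate number marks the library a sum was taken from, so sums with the same number are paired by library. Their deviations from the means of their classes correlated at 0.104 to 0.424 over 10 class pairs (median 0.172).

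Named were the 10 members, their partner lists, Col2a1 and Col10a1, and the 3 genes most like each of Acan, Comp, and Ucma. Other names were read from cluster leaders, markers, or overlaps after their values were seen. The members and lists were chosen with earlier results of these data known. The alternative without the Prg4-high cluster was added after the data were seen. The cells of 1 further chondrocyte-like cluster count in the class, and the members' values in that cluster alone, or without it, are not reported here.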

Additional observations from a re-analysis of the deposited data

Results flagged for a closer look

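Reporter transcripts appeared in libraries whose label gives WT mice. EGFP was at 891 CPM in chondrocyte-like cells of library 2, with 5103 CPM in its Col10a1-high cluster, while library 1 had no EGFP UMI in these cells. tdTomato was at 56.4 CPM in chondrocyte-like cells of library 1 and 211 CPM in those of library 2. These sequences are not members, but they count in the UMI totals behind every CPM. They were not kept out of the clustering genes, and whether they were among them is not reported here. Both stood above the limit that a count of 0 allows, which is why they are listed. Whether the reporters move with any member was not tested.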

How the results depend on the processing

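The count of 10 members higher in chondrocyte-like cells than in the mean of the other classes held under all 13 alternatives. Each of these named the class by the same cartilage markers. The mean was taken over the classes that reached the cell minimum in that setting, so it was not always the same mean. Lepr+ stromal-like cells left it at resolution 1.2 and without integration. With a minimum of 2 cells, tenocyte-like cells and a smooth muscle and pericyte-like class entered it. Another setting added skeletal muscle-like cells. Between Col10a1-low and Col10a1-high cells, where 0 members and 182 of all genes were called, the number of members higher was 2 without a filter on low counts, 2 without edgeR's bias adjustment, 2 at resolution 1.2, 2 without integration, and 1 with DESeq2. With the replicate block it was 2, and all genes called rose to 474. All genes called numbered 515 with DESeq2, 348 without the filter, 481 without bias adjustment, 113 at resolution 0.4, 430 at resolution 1.2, 387 without integration, 76 with a minimum of 2 cells, 86 with the division at 3000 CPM, and 304 without the Prg4-high cluster. With a minimum of 2 cells, all genes called went from 1225 to 810 against the mean of the classes, from 817 to 517 against osteoblast-like, from 1457 to 893 against fibroblast-like, and from 1210 to 704 against Lepr+ stromal-like cells, in a fit of fewer genes. Against osteoblast-like cells they were 1263 without bias adjustment, 1318 at resolution 1.2, and 1278 without integration. Where no construction explains a change, the cause was not tested.

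In the Col10a1 comparison several log2 fold changes turned sign, none past the threshold. Acan was −0.58 at resolution 0.4 and −0.0298 with the division at 3000 CPM. At resolution 0.4, Comp was −0.27, Hapln1 −0.687, and Snorc −0.48. Chad was −0.42 with the replicate block, −1.012 at resolution 0.4, −0.0918 at 3000 CPM, and −0.30 without the Prg4-high cluster. Against fibroblast-like cells Chad lost its call at resolution 0.4 (2.20, edgeR adjusted p = 0.45), and against Lepr+ stromal-like cells Ucma lost it with DESeq2 (6.97, adjusted p = 0.12). The replicate block changed no other call of a member except that of Chad against osteoblast-like cells. Of all member fold changes recomputed, 634 counted as the same, 68 moved, 9 reversed, 27 crossed into significance, and 2 lost it. For tested values, the same means that direction and side of the threshold were kept. Values from leaving out a library, or for tenocyte-like cells, were judged without a threshold. They counted as the same within the standard error or standard deviation of the main value. For tenocyte-like cells the main value was the mean of the 2 libraries. Each library's value then always lies within their standard deviation, so these counts of the same were fixed in advance. Leaving out a library leaves no replicate, so it gave values with no test. These are log2 ratios of CPM in the other library, with 10 CPM added to each level. The fitted values lack this addition, which makes the ratios smaller for members nearly absent from a class. Part of the moved values can therefore come from the way they were computed, and that part was not counted. Against Lepr+ stromal-like cells no value could be had at resolution 1.2 or without integration, since library 2 then held under 10 of them. Depth limits the rare members most, as Matn4 fell from 77.4% to 24.9% of Col10a1-low cells of library 1 after thinning to 2000 UMIs.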

Other observations

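Cartilage transcripts also turned up in single cells of other classes. Among the 75 skeletal muscle-like cells of library 1, the 44 Acan UMIs lay in 1 cell, as did the 110 Hapln1 UMIs, the 83 Comp UMIs, and 168 of the 169 Snorc UMIs, whereas in library 2 each of Acan, Comp, Snorc, and Chad had 1 UMI in this class.

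A cluster of 11 and 26 cells, led by the immunoglobulin gene Igkc, carried 9 of 10 fibroblast and 5 B cell markers. It was left unnamed because its 10 leading genes held 0 fibroblast markers, against 5 of another class. Its cells are therefore not in the fibroblast-like class, but they also held members. Comp was at 1865 and 953 CPM, Snorc at 1699 and 995 CPM, and Hapln1 at 1788 and 338 CPM. Ucma was absent there in library 1 and at 1152 CPM in library 2. Whether these barcodes held more than 1 cell was not tested.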
